A study of Sus scrofa with 8 samples.

Results

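Myoblast fusion and terminal differentiation genes were followed in limb muscle of pig embryos that carry a knockout of MYF5, MYOD1 (MYOD in the labels) and MYF6, the transcription factors that commit cells to skeletal muscle and drive them to differentiate. The set listed 8 genes by symbol: MYMK, MYMX, CDH15, SMYD1, KLHL40, KLHL41, CAV3 and DES. Of these, 6 had a gene identifier in the count table, out of 22516 genes in all, and all 6 had enough counts to be tested. MYMX and CAV3 were not matched to an identifier and were not analysed here.

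The study is bulk RNA sequencing of limb muscle tissue from wild-type pigs and from pigs with the combined knockout, each at embryonic day 41 (E41) and day 62 (E62), with 2 libraries per group and 8 in all. WT stands for wild type and KO for the MYF5/MYOD/MYF6 knockout below. The wild type carries no stated allele or treatment, and the labels do not say how the knockout was made, how many founder lines it has or whether animals were pooled. The series title speaks of a knockdown where the sample labels speak of a knockout. The growth protocol names day 60 where the sample labels name E62.

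Skeletal muscle fibres form when myoblasts leave the cell cycle, adhere, and merge into multinucleated myotubes that then assemble sarcomeres. Myomaker, the product of MYMK, and the micropeptide from MYMX act at the plasma membrane to bring about the merging itself, and M-cadherin (CDH15) holds the cells together beforehand. The other members belong to the finishing steps. SMYD1 helps myosin fold and assemble into thick filaments, KLHL40 and KLHL41 protect thin filament proteins, caveolin 3 (CAV3) shapes the caveolae of the muscle membrane, and desmin (DES) is the intermediate filament that links neighbouring Z-discs.

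Total counts ran from 23402052 to 60539245 per library, and wild-type E41 libraries were the shallowest. Levels are given as CPM, counts scaled to a common library total, with the totals adjusted by TMM, a method that sets library scales by the bulk of the genes. They are comparable between libraries for 1 gene, and not between genes, because transcript lengths were not used here. The knockout libraries held 0 counts of MYF5 and of MYF6, while MYOD1 had 28 and 20 counts in KO E41 and 77 and 88 in KO E62, against 1503 to 5715 per wild-type library. The 15 measured skeletal muscle markers summed to 18936 to 19787 CPM in wild-type E41 and 41933 to 51042 in wild-type E62, against 14.7 to 19.5 and 14.2 to 15.8 in the knockout. The defining transcripts of the labelled tissue were thus near 0 in the knockout. In such bulk tissue, fewer muscle cells and less RNA per muscle cell cannot be told apart. Among the knockout libraries, 2 stood apart in markers of other tissues. Summed cartilage markers reached 4623 CPM in KO E41 replicate 2 against 388 in replicate 1. Summed epithelial markers reached 1163 CPM in KO E62 replicate 1 against 52.7 in replicate 2. Wild-type libraries differed as well. Their cartilage sums were 1084 and 286 CPM in WT E41 and 103 and 76.8 in WT E62. Their epithelial sums were 782 and 1285 CPM in WT E41 and 32.6 and 36.9 in WT E62. The wild-type stages thus also differ in markers of these tissues. Summed fibroblast and limb mesenchyme markers moved with genotype, from 17565 to 28060 CPM in WT E41 to 38926 to 40306 in KO E41. At E62 they went from 20808 to 37568 in WT to 68068 to 74109 in KO. Most of each sum was the collagens COL3A1 and COL1A1. Of the 11 genes of this list tested with edgeR, 7 were higher and 1 lower in the knockout at E41. At E62 the counts were 9 and 0. Summed Schwann and neural markers were at 520 to 591 CPM in KO E41 and 108 to 136 in KO E62. Wild type had 594 to 804 CPM at E41 and 515 to 519 at E62. Most of the WT E62 sum was ERBB3, with 464 and 462 CPM against 22.5 and 14.5 in KO E62. The sums thus do not stand for the list. Of its 10 genes tested with edgeR, 4 were higher and 1 lower in the knockout at E41 (median log2 change 1.13). At E62, 5 were higher and 2 lower (median 0.87). Among all 17020 genes tested, 18.5% were called higher and 20.8% lower at E41, and 21% and 26.2% at E62. The part of the cells of these other tissues in the results was not tested. Each group carries its own number in the library names, so a litter or preparation effect cannot be told apart from the group. The labels call the replicates biological, and their library names differ in a last number, marked Emb in KO E62. Both libraries of a group share the group's number, so p-values cover the spread within 1 such number and not between them. The names of the WT E41 libraries carry the code LHL and those of the other groups RHL. This code cannot be told apart from genotype at E41, from stage in wild type, or from the difference of the knockout effect between stages.

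Locations are those of RefSeq on Sscrofa11.1, a build that the submitters' processing notes also name. MYMK (ENSSSCG00000022891) lies on chromosome 1 from 273101674 to 273111721, and CDH15 (ENSSSCG00000002642) on chromosome 6 from 636350 to 652260. SMYD1 (ENSSSCG00000008215) lies on chromosome 3 from 57866078 to 57918576. KLHL41 (ENSSSCG00000057938) and DES (ENSSSCG00000020785) are both on chromosome 15, from 75875694 to 75893789 and from 121428539 to 121435426. KLHL40 (ENSSSCG00000011286) lies on chromosome 13 from 26202607 to 26211528, and its last 2132 bases overlap the gene HHATL. The counting is not stated to use strand, so reads from that stretch could be given to either gene.

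All 6 genes were far lower in the knockout at both stages, and for each gene every knockout library lay below every wild-type library. In the edgeR test (quasi-likelihood, Benjamini-Hochberg adjusted p under 0.05) 6 of 6 fell at E41, where 39.2% of the 17020 genes tested were called, 20.8% as lower. At E62 6 of 6 fell, where 47.2% were called, 26.2% as lower. The median log2 change of the 6 was -8.76 at E41 and -10.01 at E62, beside 0.09 and 0.06 over all genes tested. The wild-type level left in the knockout ranged from 0.0327% for KLHL41 to 1.81% for DES at E41, and from 0.00527% for KLHL41 to 0.363% for KLHL40 at E62. The genes thus fell by very different amounts, as the plot of levels in each library shows.

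**Figure D1:**
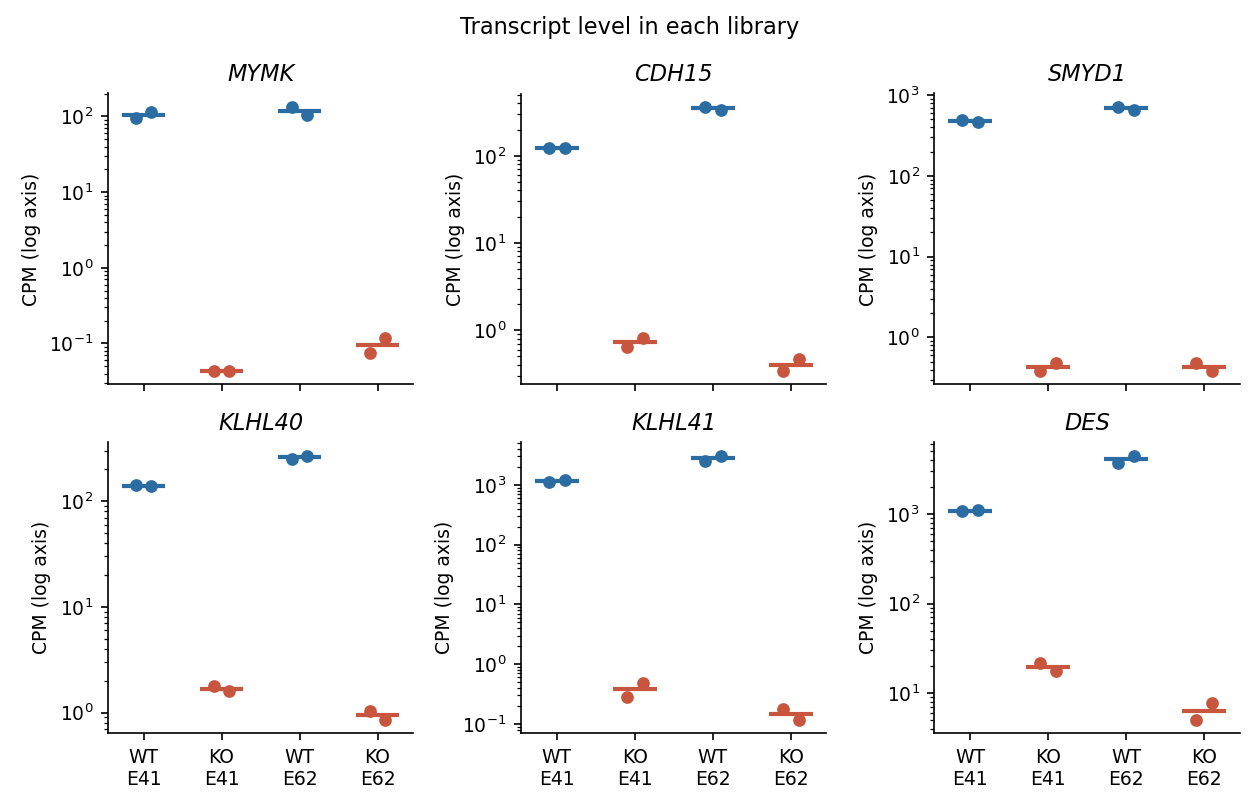
Level of each gene in CPM (log axis) in the 8 libraries, with blue points for wild type and red points for knockout, and a line at the mean of each pair. Every knockout point lies below every wild-type point of the same gene; the MYMK points in the knockout rest on 2 to 7 counts.

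MYMK, the fusogen, had the fewest knockout counts of the 6 genes. Wild-type E41 libraries had 94.2 and 116 CPM and wild-type E62 libraries 135 and 104 CPM, so the stages overlapped. The knockout held 2 and 2 counts at E41 (0.0431 and 0.0434 CPM) and 5 and 7 counts at E62 (0.0738 and 0.117 CPM). The log2 change was -11.15 ± 0.29 (standard error) at E41, with an edgeR adjusted p of 2.2e-07. At E62 it was -10.26 ± 0.26 (adjusted p = 1.1e-07). With so few counts these standard errors can be too small. The counting error alone puts the level left at 0.0112% to 0.105% of wild type at E41 and at 0.0408% to 0.138% at E62 (95% Clopper-Pearson intervals, which cover counting error only). MYMK did not pass the test between stages in wild type (0.18 ± 0.15, adjusted p = 0.37) or in knockout (1.07 ± 0.60, adjusted p = 0.26).

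CDH15, the adhesion molecule M-cadherin of myoblasts and satellite cells, had 124 and 123 CPM in wild-type E41 and 365 and 334 CPM in wild-type E62. The knockout libraries had 0.646 and 0.803 CPM at E41 (30 and 37 counts) and 0.339 and 0.467 CPM at E62 (23 and 28 counts). Wild type therefore rose with stage while the knockout libraries at E62 lay below those at E41. The knockout change was -7.41 ± 0.16 at E41 (adjusted p = 1.2e-07) and -9.76 ± 0.18 at E62 (adjusted p = 3.9e-08). The level left was 0.586% of wild type at E41 and 0.115% at E62.

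SMYD1, the muscle methyltransferase that acts with myosin chaperones, had 497 and 464 CPM in wild-type E41 and 719 and 650 CPM in wild-type E62. In the knockout it had 0.388 and 0.478 CPM at E41 and 0.487 and 0.384 CPM at E62, from 18 to 33 counts, and the 2 stages overlapped. The log2 change was -10.11 ± 0.18 at E41 (adjusted p = 9.3e-08) and -10.60 ± 0.18 at E62 (adjusted p = 3.9e-08). The level left was 0.0900% and 0.0636% of wild type.

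The Kelch proteins KLHL40 and KLHL41 are close relatives, and loss of either gives nemaline myopathy in humans. KLHL40 had 142 and 139 CPM in wild-type E41 and 250 and 270 CPM in wild-type E62. Its knockout libraries had 1.79 and 1.59 CPM at E41 and 1.03 and 0.851 CPM at E62, from 51 to 83 counts. KLHL40 changed by -6.38 ± 0.13 at E41 (adjusted p = 9.4e-08) and by -8.10 ± 0.14 at E62 (adjusted p = 3.9e-08). The level left, 1.20% and 0.363% of wild type, was the highest of the 6 genes at E62.

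KLHL41 had 1116 and 1198 CPM in wild-type E41 and 2479 and 3093 CPM in wild-type E62. Its knockout libraries had 0.280 and 0.478 CPM at E41 and 0.177 and 0.117 CPM at E62, from 7 to 22 counts. KLHL41 changed by -11.57 ± 0.29 at E41 (adjusted p = 1.8e-07) and by -14.17 ± 0.32 at E62 (adjusted p = 7.6e-08), the lowest log2 change of the 6 at each stage. HHATL, the gene that overlaps the end of KLHL40, had 85 and 127 counts in wild-type E41 against 10 and 1 in the knockout, and 480 and 534 against 17 and 21 at E62. HHATL counts were thus below those of KLHL40 in every library.

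DES kept the most transcript at E41. Wild-type libraries had 1075 and 1101 CPM at E41 and 3684 and 4465 CPM at E62. The knockout libraries had 21.8 and 17.6 CPM at E41 (1012 and 812 counts) and 5.05 and 7.74 CPM at E62 (342 and 464 counts). The log2 change was -5.79 ± 0.26 at E41 (adjusted p = 3.8e-06) and -9.32 ± 0.30 at E62 (adjusted p = 4.0e-07), and the level left was 1.81% and 0.157% of wild type. Desmin is also made by smooth muscle and pericytes. In the knockout their 16 markers kept from 7.39% to 283% of the wild-type level at E41, and from 3.71% to 235% at E62. They summed to 982 to 1004 CPM at E41 and 948 to 1136 CPM at E62, against 1850 to 2132 and 2583 to 3028 in wild type. Much of the difference lay in ACTA2, with 972 and 831 CPM in WT E41 and 1025 and 894 in WT E62. Its knockout libraries had 66.5 and 66.7 CPM at E41 and 129 and 116 at E62. The part of smooth muscle cells and pericytes in the remaining DES was not tested. SMYD1 and DES are also active in heart muscle. The 11 measured cardiac markers, some of which skeletal muscle also expresses, summed to 6.25 to 6.33 CPM at E41 and 16.0 to 18.8 at E62 in the knockout, against 847 to 967 and 1195 to 1465 in wild type. Of the 7 that could be tested, 5 rose and 0 fell from E41 to E62 in the knockout. In that comparison 30.1% of all genes tested were called, 12.1% as higher. The cardiac count was not repeated with other processing. Some of these genes rest on few counts, such as TNNT2 with 10 and 5 and MYBPC3 with 6 and 5 in KO E41. The heart factor NKX2-5 had 0 counts in all libraries except WT E41 replicate 2, which had 4.

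**Figure D2:**
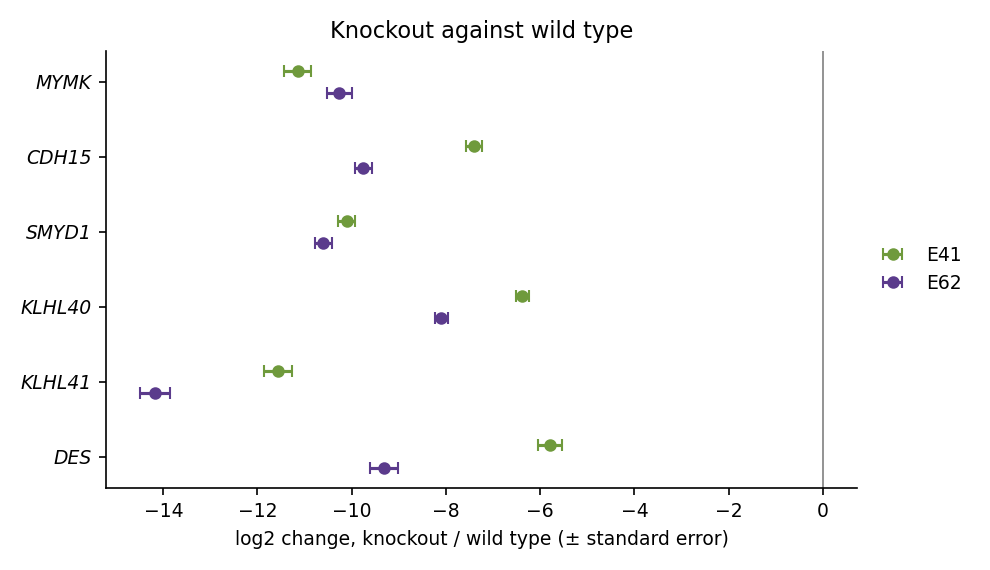
Log2 change of each gene in knockout against wild type at E41 (green) and E62 (purple), with bars for the standard error (2 libraries per group). The points run from -14.17 for KLHL41 at E62 to -5.79 for DES at E41; for MYMK the E62 point lies nearer 0 than the E41 point, and for the other genes it lies further from 0.

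The knockout effect was deeper at E62 than at E41 for 4 of the 6 genes, in a comparison where 26.8% of all genes tested were called, 15.5% with a lower and 11.2% with a higher effect at E62. DES differed most, with a change of -3.53 ± 0.31 in the effect (adjusted p = 0.00075), followed by KLHL41 with -2.60 ± 0.41 (adjusted p = 0.0042). CDH15 differed by -2.35 ± 0.23 (adjusted p = 0.00099) and KLHL40 by -1.72 ± 0.17 (adjusted p = 0.0010). SMYD1 (-0.49 ± 0.23, adjusted p = 0.21) and MYMK (0.89 ± 0.61, adjusted p = 0.37) did not pass. Of the 15 skeletal muscle markers, 5 had a lower and 0 a higher effect at E62, with a median of -1.05, beside -2.03 over the 6 genes and 0.01 over all genes tested.

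In wild type, 5 of the 6 genes rose from E41 to E62, where 39.8% of all genes tested were called, 19.8% as higher. DES rose by 1.91 ± 0.21 (adjusted p = 0.00074), CDH15 by 1.50 ± 0.12 (adjusted p = 0.00023) and KLHL41 by 1.27 ± 0.18 (adjusted p = 0.0016). KLHL40 rose by 0.89 ± 0.10 (adjusted p = 0.00077) and SMYD1 by 0.51 ± 0.11 (adjusted p = 0.010). Of the skeletal muscle markers, 13 of 15 rose, with a median of 1.57 beside 1.08 for the 6 genes. They included the skeletal actin ACTA1 (2.53 ± 0.28) and the muscle creatine kinase CKM (3.30 ± 0.15), which rose more than any of the 6.

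**Figure D3:**
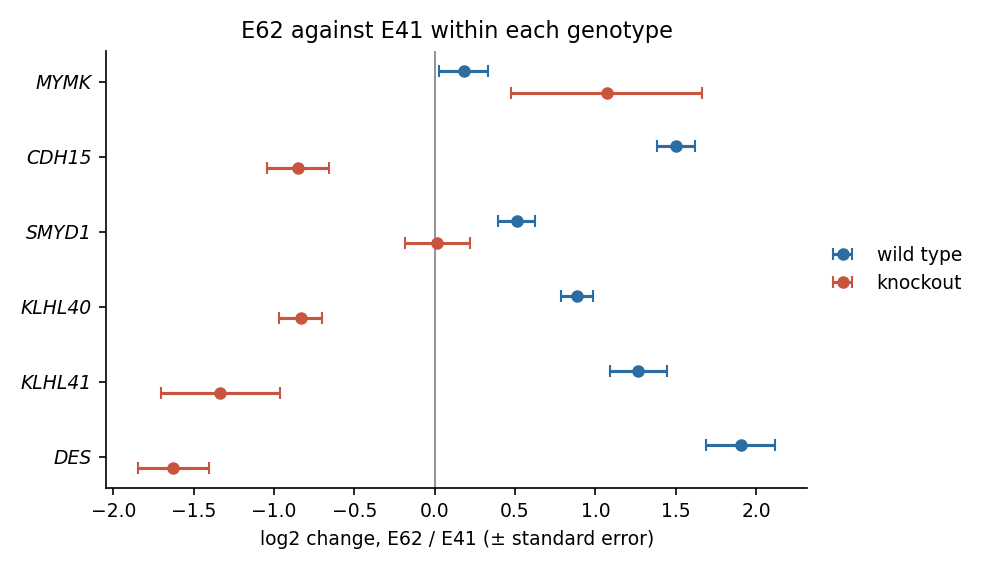
Log2 change from E41 to E62 of each gene within wild type (blue) and within knockout (red), with bars for the standard error (2 libraries per group). For CDH15, KLHL40, KLHL41 and DES the wild-type point lies right of 0 and the knockout point left of it.

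In the knockout the traces that were left went the other way for 4 of the 6 genes, where 30.1% of all genes tested were called, 18% as lower and 12.1% as higher. DES fell by 1.63 ± 0.22 on the log2 scale (adjusted p = 0.0025), and its 2 knockout libraries at E62 lay below both at E41. KLHL41 fell by 1.33 ± 0.37 (adjusted p = 0.030), CDH15 by 0.85 ± 0.19 (adjusted p = 0.015) and KLHL40 by 0.83 ± 0.13 (adjusted p = 0.0043). SMYD1 gave 0.02 ± 0.20 (adjusted p = 0.97). These falls rest on few counts, and only that of DES passed in every alternative (adjusted p at most 0.020). The count of 4 became 1 with limma-voom and with only the 2 groups compared, and 2 without KO E41 replicate 2, with or without KO E62 replicate 1 left out beside it.

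Traces of other muscle transcripts in the knockout did not move as one. Of the 15 skeletal muscle markers, 6 rose and 2 fell from E41 to E62 in the knockout, with a median of 0.47 beside -0.84 for the 6 genes and -0.03 for all genes tested. The release channel RYR1 rose by 1.35 ± 0.24 (adjusted p = 0.0069) and the light chain MYL1 by 1.28 ± 0.28 (adjusted p = 0.014). MYL1 rests on 6 and 9 counts in KO E41. The MYL1 call was lost with limma-voom (0.14), with only the groups compared (0.087) and with counts thinned to the smallest library (0.29). The RYR1 call was lost with limma-voom (0.13). Without KO E41 replicate 1 the change was 1.172 for RYR1 and 1.015 for MYL1. The slow troponin TNNT1 fell by 1.77 ± 0.34 (adjusted p = 0.010), and the perinatal myosin MYH8 by 1.86 ± 0.51 (adjusted p = 0.032). The MYH8 call was lost with limma-voom (0.062), with only the groups compared (0.11), and without KO E41 replicate 1 (0.12) or 2 (0.11). It was lost as well when any 1 wild-type library was left out (0.050 to 0.065), and that of TNNT1 with limma-voom (0.059) and without KO E41 replicate 2 (0.053). The 6 rises became 0 with limma-voom and without KO E41 replicate 2 and KO E62 replicate 1 together. Without a single library they became 1 (KO E41 replicate 1), 2 (KO E41 replicate 2) or 3 (either KO E62 library). Among the 16 smooth muscle and pericyte markers 5 rose and 2 fell. The smooth muscle actin ACTA2 (0.88 ± 0.12, adjusted p = 0.0029), TAGLN (1.04 ± 0.15, adjusted p = 0.0033) and the smooth muscle myosin MYH11 (1.14 ± 0.24, adjusted p = 0.012) rose between the stages at which DES fell. SYNPO2, an actin-bundling protein, fell with DES, from 94.1 and 91.0 CPM to 26.8 and 25.1 (-1.83 ± 0.28, adjusted p = 0.0056), as did the pericyte receptor NOTCH3 (-0.59 ± 0.12, adjusted p = 0.010). The 5 rises became 2 when either KO E41 library was left out, where the MYH11 call was lost (0.077 and 0.069). Without KO E41 replicate 2 and KO E62 replicate 1 together they were 2 as well and the 2 falls became 0, with ACTA2 at 0.052, SYNPO2 at 0.079 and NOTCH3 at 0.078. NOTCH3 was also lost without KO E41 replicate 1 (0.074).

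**Figure D4:**
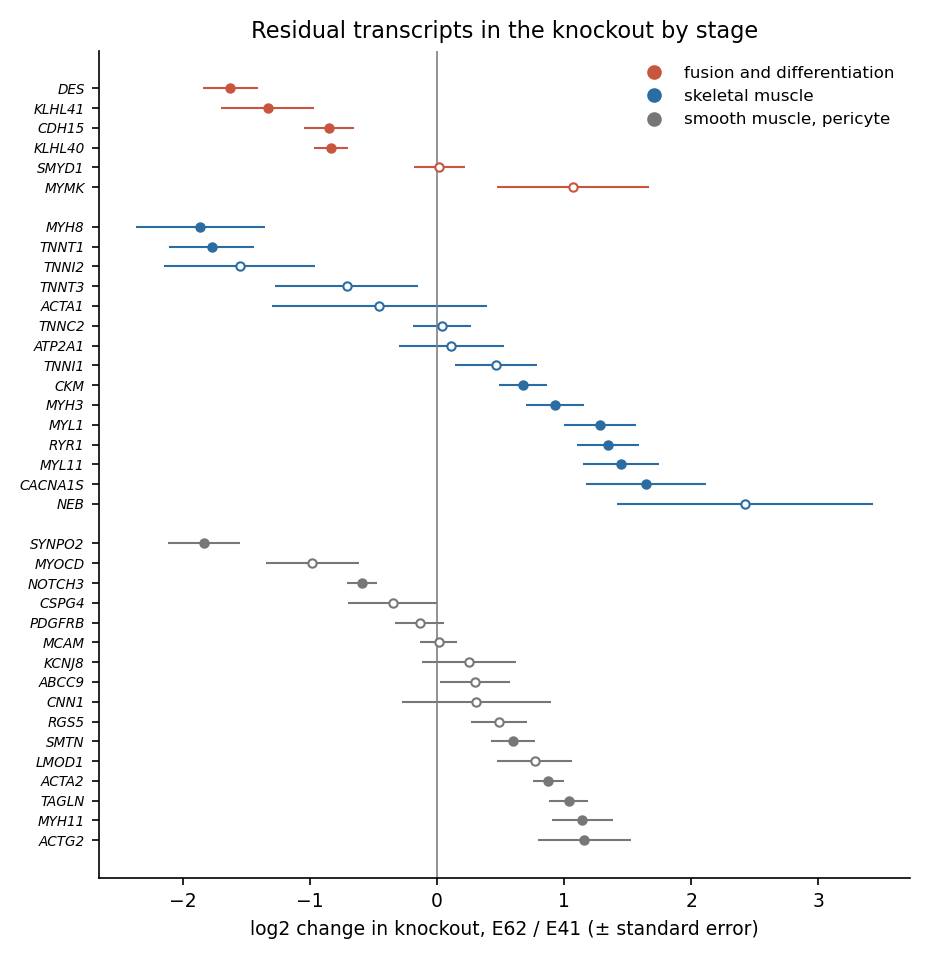
Log2 change from E41 to E62 within the knockout for the 6 fusion and differentiation genes (red), 15 skeletal muscle markers (blue) and 16 smooth muscle and pericyte markers (grey), with bars for the standard error and filled points for genes past the edgeR test. DES lies at -1.63. Of the smooth muscle and pericyte markers 5 rose, among them ACTA2, TAGLN and MYH11 between 0.88 and 1.14. SYNPO2 (-1.83) and NOTCH3 fell, and 9 did not pass.

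The levels left of the 6 genes and of the defining markers of skeletal muscle overlapped in range. The median level left of the 15 skeletal markers was 0.148% of wild type at E41 and 0.0481% at E62, beside 0.338% and 0.0977% for the 6 genes. The smooth muscle and pericyte markers kept a median of 75.9% at E41 and 54.3% at E62. At E41 DES with 1.81% and KLHL40 with 1.20% lay above the highest skeletal marker (0.973%), and KLHL40 with 0.363% lay above the highest at E62 (0.207%).

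**Figure D5:**
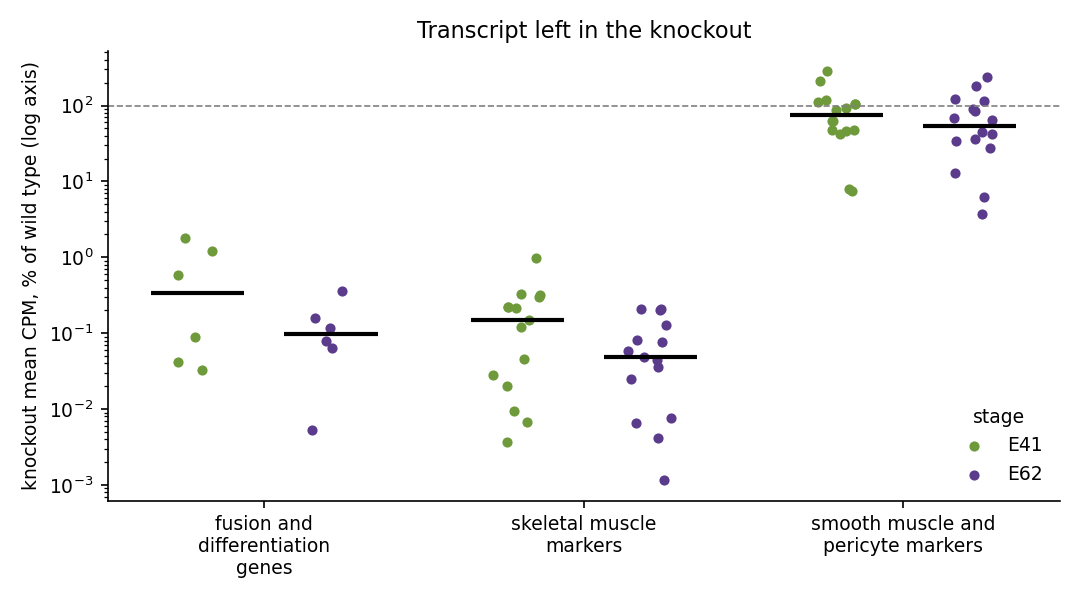
Knockout mean CPM as a percentage of the wild-type mean (log axis) for the 6 genes, 15 skeletal muscle markers and 16 smooth muscle and pericyte markers, at E41 (green) and E62 (purple), with a line at each median and a dashed line at 100%. The 6 genes and the skeletal muscle markers lie at or below 1.81%, and the smooth muscle group has medians of 75.9% and 54.3%.

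Other genes of cell fusion and adhesion were called in both directions. Of 51 listed genes, 50 were tested; 12 were higher and 16 lower in the knockout at E41 (median -0.22), and 9 were higher and 15 lower at E62 (median -0.07). That is 56.0% and 48.0% called, beside 39.2% and 47.2% of all genes tested, so the share at E62 lay near the background. In the 6 further lists below, 46.9% to 85.0% were called at E41 and 65.6% to 90.9% at E62; all genes tested were 18.5% higher and 20.8% lower at E41, and 21% higher and 26.2% lower at E62. TMEM182, a muscle membrane protein that restrains fusion in mice, changed by -5.41 ± 0.17 at E41 and by -6.84 ± 0.17 at E62 (adjusted p = 4.7e-07 and 1.1e-07). The muscle calpain CAPN3 changed by -4.21 ± 0.10 and -4.06 ± 0.10. HACD1, a fatty acid enzyme that aids fusion, changed by -1.27 ± 0.18 and -3.35 ± 0.19. The promyogenic receptor BOC rose by 2.02 ± 0.11 at E41 (adjusted p = 1.1e-05) and 1.62 ± 0.11 at E62 (adjusted p = 1.8e-05), with 295 ± 20.5 CPM against 72.7 ± 1.51 in wild type at E41 (SD, n = 2). KIRREL1, whose fly relatives mediate myoblast attraction, rose by 0.98 ± 0.12 at E41 (adjusted p = 0.00069). The phospholipase PLD1 rose by 1.26 ± 0.15 at E62 (adjusted p = 0.00044). The 12 rises became 6 without KO E41 replicate 2, 7 without KO E41 replicate 1 and 19 with library size as the only scaling, and the 9 became 5 without WT E62 replicate 1 and 16 with that scaling.

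The other cadherins and the catenins that tie them to actin moved less than CDH15, with log2 changes no lower than -1.21 at E41 and -5.48 at E62. Of those 12 genes, 2 were higher and 5 lower at E41, and 2 higher and 7 lower at E62, with medians of -0.34 and -0.59. The mesenchymal cadherin CDH11 rose by 1.09 ± 0.15 at E41 (adjusted p = 0.0012) and by 0.82 ± 0.15 at E62 (adjusted p = 0.0032). N-cadherin, CDH2, was at 127 ± 15.3 CPM in wild type and 100.5 ± 8.24 in knockout at E41 and did not pass at either stage (adjusted p = 0.52 and 0.31). It passed at E41 with only the groups compared (-0.38, adjusted p = 0.048) and at E62 without WT E62 replicate 2 (-0.98, adjusted p = 0.016). R-cadherin, CDH4, changed by -2.10 ± 0.32 at E62 (adjusted p = 0.0012), and the catenin CTNNA3 by -5.48 ± 0.41 (adjusted p = 4.6e-05). The 5 falls at E41 became 1 with library size as the only scaling, and 2 without WT E41 replicate 1 or without either KO E41 library. They became 3 without either WT E62 library, and 1 without KO E41 replicate 2 and KO E62 replicate 1 together.

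Partners of SMYD1 and genes of myosin folding fell in most cases. Of 17 tested, 0 were higher and 11 lower at E41, and 1 was higher and 14 lower at E62. UNC45B, the myosin chaperone of striated muscle, went from 225 ± 4.61 CPM in wild type to 2.25 ± 0.289 in knockout at E41, a log2 change of -6.64 ± 0.35, and changed by -6.79 ± 0.35 at E62 (adjusted p = 4.2e-05 and 1.8e-05). The myosin-binding protein MYBPH changed by -10.29 ± 0.28 and -11.99 ± 0.29, and the M-band protein MYOM2 by -7.04 ± 0.58 and -9.12 ± 0.62. SMYD2, a relative of SMYD1 that is widely active, stood at 0.04 ± 0.16 at E41 (adjusted p = 0.86) and changed by -0.65 ± 0.16 at E62 (adjusted p = 0.013). The SMYD2 call at E62 was lost with library size as the only scaling (adjusted p = 0.12) and without KO E62 replicate 2 (0.052).

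A mixed list of partners of KLHL40 and KLHL41, other Kelch relatives and genes of nemaline myopathy fell widely. Its genes ACTA1, NEB and TNNT1 are also among the skeletal muscle markers. Of 22 tested, 2 were higher and 16 lower at E41 (median -2.75), and 0 higher and 20 lower at E62 (median -4.70). LMOD3, the thin filament leiomodin that KLHL40 stabilises in mice, changed by -8.14 ± 0.24 at E41 and -7.64 ± 0.22 at E62 (adjusted p = 5.1e-07 and 2.9e-07). The related KLHL31 changed by -9.33 ± 0.24 and -11.14 ± 0.25, and ACTA1 by -13.32 ± 0.49 and -16.30 ± 0.52. KLHL30 had 3 to 5 counts per knockout library at E41 and 427 to 461 per wild-type library, and 1 knockout count in all at E62, where it was 4042-fold lower (interval 772 to 170093). CUL3, the ubiquitin ligase scaffold to which Kelch proteins bind in all cells, changed by -0.67 ± 0.09 at E62 (adjusted p = 0.00077). The smaller change of CUL3 at E41 (-0.43 ± 0.09, adjusted p = 0.0079) lost its call with library size as the only scaling (0.22) and without WT E41 replicate 1 (0.060) or KO E41 replicate 1 (0.071).

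Genes of caveolae and of membrane repair were mostly lower, with the largest falls in muscle genes. Of 20 tested, 3 were higher and 14 lower at E41, and 2 higher and 12 lower at E62. The membrane repair protein TRIM72 changed by -9.00 ± 0.29 and -8.38 ± 0.27 (adjusted p = 1.3e-06 and 6.8e-07). CAVIN4, the cavin of muscle, changed by -5.35 ± 0.28 at E62 (adjusted p = 8.0e-06), where wild type had risen to 67.5 ± 21.0 CPM from 5.59 ± 0.152 at E41. CAV1, the caveolin of most other tissues, was at 64.8 ± 5.86 CPM in wild type and 61.3 ± 0.600 in knockout at E41 (adjusted p = 0.61), and at 80.8 ± 10.1 and 112 ± 6.21 at E62. The CAV1 change at E62 was 0.47 ± 0.11 (adjusted p = 0.011), and its call was lost without WT E62 replicate 1 (0.074) and without KO E62 replicate 2 (0.050). EHD2, a caveola neck protein, rose by 0.80 ± 0.14 at E41 (adjusted p = 0.0037).

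Among the intermediate filament genes around desmin, NES fell and VIM did not pass. Nestin, NES, is a filament of muscle and neural progenitors and of young myotubes. It went from 4379 ± 878 to 752 ± 11.6 CPM at E41 (-2.54 ± 0.19, adjusted p = 8.4e-05) and from 5006 ± 43.9 to 456 ± 86.9 CPM at E62 (-3.46 ± 0.20, adjusted p = 1.0e-05). Vimentin, VIM, the filament of mesenchyme, was at 6279 ± 7.11 against 4947 ± 407 CPM at E41 and 3848 ± 866 against 4675 ± 222 at E62 (adjusted p = 0.16 and 0.22). VIM passed at E41 with only the groups compared (-0.39, adjusted p = 0.040) and at E62 with library size as the only scaling (0.58, adjusted p = 0.031). Of 24 genes tested in this list, 2 were higher and 10 lower at E41, and 1 higher and 15 lower at E62. SPTB, a spectrin of red cells and muscle, changed by -5.61 ± 0.53 and -6.53 ± 0.53, and the Z-disc repeat protein XIRP2 by -11.70 ± 0.71 and -12.15 ± 0.67.

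Regulators of terminal differentiation fell in part, to different depths. Of 32 tested, 2 were higher and 13 lower at E41, and 0 higher and 21 lower at E62. The 32 include MYF5, MYOD1 and MYF6, the genes that the labels name as knocked out. Whether their low levels come from the knockout of each gene itself or from fewer muscle cells was not tested. MYOD1, itself a target of the knockout, kept 0.617% of its wild-type level at E41 and 0.801% at E62. The first lay within the range of the 6 genes at that stage and the second above it. MYOG changed by -12.99 at E41 and -15.77 at E62, with 2 and 2 counts in KO E41 and 1 and 0 in KO E62. MEF2C, which acts with the myogenic factors on muscle promoters, kept 13.1% at E41 and 8.06% at E62, with log2 changes of -2.93 ± 0.14 and -3.63 ± 0.14 (adjusted p = 5.5e-06 and 1.2e-06).

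For each member, the nearest profiles were sought among 11910 genes with a symbol and a mean of at least 2 CPM, by the root mean square distance of log2(CPM + 1) values centred over the 8 libraries. This scale flattens differences below 1 CPM, so it weighs the wild-type pattern more than the traces in the knockout. For genes near 0 in the knockout, the distance also follows how high their wild-type CPM is, which is not comparable between genes. The nearest to SMYD1 were MYOG (distance 0.162) and the troponin gene TNNI1 (0.289). The nearest to MYMK were TRIM55, a sarcomeric ubiquitin ligase (0.193), and METTL21EP (0.264), and the nearest to CDH15 were the calcium pump gene ATP2A1 (0.256) and PRR32 (0.291). KLHL40 lay nearest to HJV (0.280) and the tropomodulin gene TMOD1 (0.280), and KLHL41 to the myosin light chain MYL2 (0.266) and MYBPC1 (0.373). DES had the most distant neighbours, SRL (0.411) and SYNPO2L (0.548), both genes of striated muscle. In the knockout at E41, DES changed by -5.79 while SRL changed by -6.86 and SYNPO2L by -7.57. Among the members themselves, MYMK and KLHL40 were nearest to each other (0.384), and KLHL40 and KLHL41 were the most distant pair (2.05). MYMK and KLHL40 had mean levels of 105 and 141 CPM in WT E41, but kept 0.0412% and 1.20% of them in KO E41. KLHL41, with 1157 CPM in WT E41 and 0.0327% kept, lay 1.93 from MYMK. These distances are thus no measure of like knockout effects.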

How the data were processed

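The authors deposited 1 table of expected counts, estimated per gene, not normalized and given as whole numbers, for the 8 libraries. Per the submitters' processing notes, kallisto and DESeq2 were used and the builds are Sscrofa11.1 and susScr11; their roles and versions, the annotation release and the filters are not given in the sources used. Per the labels' protocols, libraries came from a TruSeq RNA or a stranded mRNA kit. Estimated counts can be divided between close relatives.

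Counts were rounded, and genes kept by edgeR's filterByExpr (minimum count 10), 17020 in number, received TMM factors. The model, in edgeR 4.0.16 under R 4.3.3, held 1 mean for each of the 4 groups and left 4 residual degrees of freedom. Quasi-likelihood F tests were two-sided, with Benjamini-Hochberg adjustment over all genes tested and a threshold of 0.05. Standard errors are the log2 change over the square root of F. The alternatives used DESeq2 1.42.0, limma-voom (limma 3.58.1), other scalings, filters and sample sets. Fold bounds of genes with 1 to 3 counts have a 95% Clopper-Pearson interval. The steps were tested on simulated data. Symbols were found for 15527 of 22516 identifiers.

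Members and lists were chosen with earlier results of these data known. Genes named from the lists were picked by a rule: fixed relatives of the members, the 3 largest changes at E62 per list, up to 3 against its majority, and the 2 nearest profiles per member. Which of these to describe was decided after their values were seen, as were the skeletal and smooth muscle markers named. Within groups, counts of the paired libraries were further apart than sampling allows (chi-square over its degrees of freedom 33.7 to 74.0), so each library counted as 1 sample.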

Additional observations from a re-analysis of the deposited data

Results flagged for a closer look

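The knockout effect differed between the stages for 4 genes, by the test of the difference itself (genotype by stage in edgeR). The effect at E62 minus that at E41 was -3.53 on the log2 scale for DES, -2.60 for KLHL41, -2.35 for CDH15 and -1.72 for KLHL40. In each of the 4, wild type rose with stage and the knockout fell. The largest adjusted p over 18 alternatives was 0.0067 for DES, 0.043 for KLHL41, 0.0098 for CDH15 and 0.0068 for KLHL40.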

How the results depend on the processing

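The counts of 6 of 6 genes lower at E41 and at E62 held in all 19 alternatives, and so did the 5 rises in wild type; the 4 differences between stages held in all 18 that could be fitted. In the knockout, 4 genes fell between stages. That count became 1 with limma-voom and 1 with only the groups compared, ranged from 2 to 4 when each library was left out, and was 2 without KO E41 replicate 2 and KO E62 replicate 1 together, an alternative chosen after seeing the data. The adjusted p reached 0.40 for CDH15, 0.22 for KLHL41 and 0.11 for KLHL40. SMYD1 in the knockout between stages reversed to -0.0047 with thinned counts, -0.13 without KO E41 replicate 1, -0.18 without KO E62 replicate 1 and -0.022 without the pair. Its range with 1 library left out was -0.18 to 0.17, and no value passed the test.

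Of the other genes named, CAV1 at E41 (-0.08) reversed to 0.21 with library size as the only scaling and 0.057 without WT E41 replicate 1 (range with 1 library left out -0.15 to 0.057), and SMYD2 at E41 to -0.10 without that library (-0.10 to 0.27). At E62, EHD2 (-0.05) reversed to 0.26 with that scaling, 0.097 without KO E62 replicate 1 and 0.098 without the pair (-0.22 to 0.097). CAV2 at E62 (0.06) reversed to -0.17 without WT E62 replicate 1 and -0.029 without KO E62 replicate 2 (-0.17 to 0.32), and CDH2 (-0.51) to 0.18 without WT E62 replicate 1 (-0.98 to 0.18). The cause was not tested.

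With library size as the only scaling the median of all genes moved by 0.290 at E41 and 0.305 at E62, and 73.6% and 69.4% of the called genes were higher, against 47.1% and 44.5% with TMM. The counts over all genes moved too: at E41 from 1582 to 5780 higher and 2070 to 3896 lower, at E62 from 2250 to 6156 and 2717 to 4631. For the difference between stages they ran from 619 to 2471 higher and 1411 to 2712 lower, for wild-type stages from 2643 to 3762 and 1848 to 3599, and for knockout stages from 580 to 2552 and 1326 to 3648.

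The replicate numbers do not pair the libraries. Deviations of same-numbered libraries correlated by -0.298 to 0.0992, and the replicate block left 6, 6, 4, 5 and 4 calls in the 5 comparisons. MYMK in the knockout rests on 4 counts at E41 and 12 at E62, which sets the limit of depth.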

Other observations

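The ratio of KLHL41 to KLHL40 was lower in the knockout. The log2 ratio of KLHL41 to KLHL40 in CPM carries the unequal lengths of both transcripts, so it can be read only between libraries. It was 2.97 and 3.11 in wild-type E41 and 3.31 and 3.52 in wild-type E62, against -2.67 and -1.73 in knockout E41 and -2.54 and -2.87 in knockout E62. The log2 ratio of CDH15 to MYMK was 0.39 and 0.09 in wild-type E41 libraries and 1.44 and 1.69 in those of E62. In the knockout this ratio was 3.91 and 4.21 at E41, where MYMK rests on 2 and 2 counts. At E62 it was at most 2.20 there, with 5 and 7 MYMK counts. The ratio was thus higher at E62 in wild type and lower at E62 in the knockout, where the direction rests on few MYMK counts. Both ratios were chosen after the values were seen and have no test of their own.

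At the depth of the shallowest library (23402052 counts), thinned counts of MYMK were 1 and 0 in knockout E41 and 1 and 2 in knockout E62, against 1951 and 2420 and 2912 and 2176 in wild type. KLHL41 had 7 and 10 thinned counts in knockout E41 and 3 and 4 in knockout E62.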
